A study of Homo sapiens with 4 samples.

Results

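Transcript levels of 46 type I interferon-stimulated genes and interferon pathway genes were followed in MOLM-13 cells, a human acute monocytic leukaemia line, with and without induced expression of GADD45G, a stress-inducible regulator of growth arrest and MAP kinase signalling. The 46 genes were named as a list by symbol, and all 46 were found among the 26601 symbols listed in all 4 libraries. RNA-seq was done on 2 libraries of untreated cells and 2 libraries of cells given doxycycline, labelled as 1 mg/ml, over 4 days, and the design text describes 2 biological replicate experiments. The sources used here do not give the promoter of the construct, whether the line is 1 clone or whether the untreated cells carry the construct. Doxycycline-treated cells without GADD45G were not analysed here, so effects of the drug and of the gene cannot be told apart.

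Type I interferons bind the receptor pair IFNAR1 and IFNAR2, which activates the kinases JAK1 and TYK2. These phosphorylate STAT2, which works with IRF9 in the complex ISGF3 that binds the interferon-stimulated response element (ISRE) in front of target genes. The targets encode sensors of viral RNA, enzymes that degrade or edit RNA, proteins that block virus entry or release, and feedback inhibitors such as USP18, and many are transcribed at a basal level in myeloid cells that no interferon has reached.

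The ISRE was looked for in the promoters of the list. Stretches with it are shown from 8 members, chosen to include each kind of response. GBP2, IFITM2, LY6E and USP18, with the largest changes among the tested members, had no matched promoter sequence and could not be shown. PARP14 was higher after induction, HERC5 and OAS3 were lower, BST2, ISG15 and IFI6 did not pass the test, and ISG20 and IFITM1 lay under the level needed for it. Sequences are from RefSeq promoter windows on GRCh38.p14, from 250 bases before to 50 bases after an annotated start, written along the gene from 5′ to 3′, with capitals marking the ISRE core GAAANNGAAA or its reverse complement TTTCNNTTTC. The stretches lie at chr3:122680795-122680834 for PARP14, chr4:88456979-88457069 for HERC5 and chr12:112938316-112938473 for OAS3. Those of ISG15, ISG20 and IFITM1 lie at chr1:1013369-1013414, chr15:88638932-88638971 and chr11:313985-314024. All of these are on the plus strand, while BST2 at chr19:17405730-17405775 and IFI6 at chr1:27672261-27672363 are on the minus strand.
PARP14: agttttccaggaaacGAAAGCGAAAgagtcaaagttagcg
HERC5: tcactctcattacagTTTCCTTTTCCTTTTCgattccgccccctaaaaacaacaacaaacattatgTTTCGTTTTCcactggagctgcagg
OAS3: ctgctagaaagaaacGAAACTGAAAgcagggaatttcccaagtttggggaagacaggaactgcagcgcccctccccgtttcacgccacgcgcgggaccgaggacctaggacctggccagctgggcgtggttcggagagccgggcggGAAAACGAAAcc
BST2: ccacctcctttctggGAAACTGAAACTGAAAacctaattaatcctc
ISG15: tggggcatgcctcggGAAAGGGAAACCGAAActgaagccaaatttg
IFI6: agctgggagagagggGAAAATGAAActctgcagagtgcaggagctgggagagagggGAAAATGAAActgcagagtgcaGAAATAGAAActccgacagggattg
ISG20: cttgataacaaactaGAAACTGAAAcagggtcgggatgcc
IFITM1: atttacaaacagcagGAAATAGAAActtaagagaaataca

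Of the 46 members, 34 had a promoter window, with 45 windows in all. The ISRE core was present on either strand in 28 of these 45 windows (62.2%) and in 24 of the 34 genes, while 10 genes held none, against 1255 of all 35116 windows (3.57%). At least 2 cores, which may overlap as in BST2 and ISG15, were found in 28.9% of the members' windows and in 0.259% of all windows. The core of the gamma-activated site, TTCNNNGAA, which reads the same on both strands, was in 11 of the 45 windows (24.4%) and in 7.66% of all windows. By response, the ISRE core stood in 1 of 1 gene with a window that was higher after induction, in 2 of 3 that were lower, in 9 of 16 that did not pass and in 12 of 14 that were not tested. These matches are a description of letters in these windows, not of bound sites. DHX58, IFITM2, LY6E, OAS2, IFIT2, IFNAR2, MX2, OASL, USP18, IRF7, GBP2 and TRIM22 were not matched to a window.

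**Figure D1:**
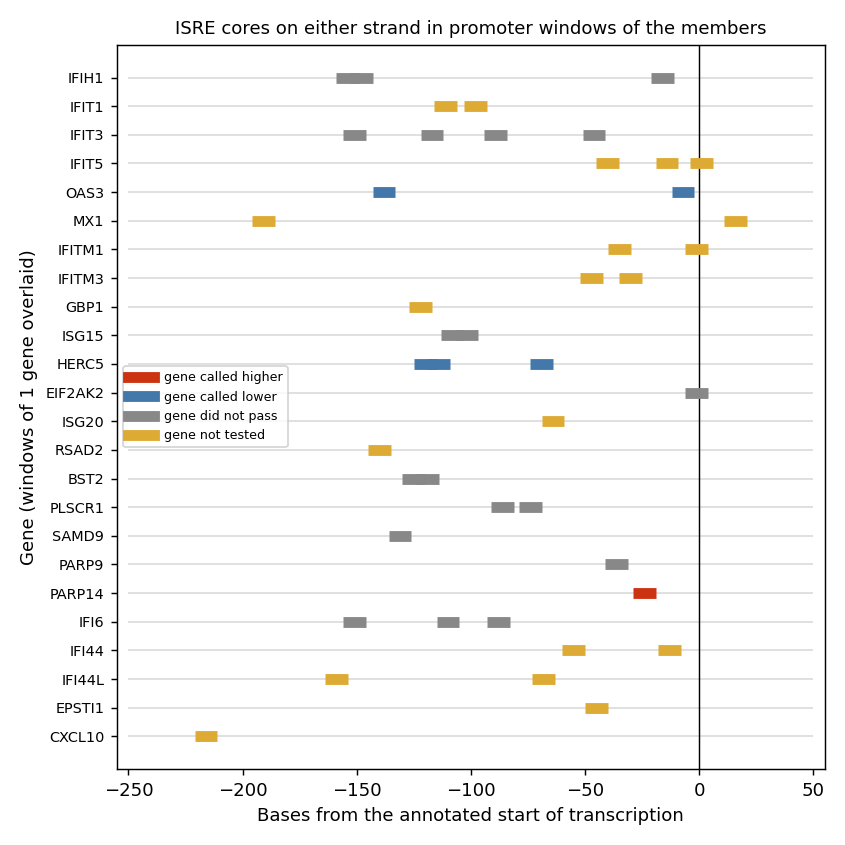
Positions of ISRE cores on either strand (blocks) in the promoter windows of the 24 members that hold one, in bases from the annotated start of transcription, coloured by the response of the transcript. Genes of every response hold cores, most of them within the 250 bases before the start.

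The libraries held 15683931 to 18895470 reads, which made 1 read on 1 kb of exon equal to 0.0529 to 0.0638 RPKM (reads scaled by exon length and library depth). GADD45G stood at 10.5 and 0.289 RPKM in untreated controls 1 and 2 and at 3236 and 2118 RPKM in induced replicates 1 and 2, a change of 9.41 ± 0.73 (SE) in log2(RPKM + 1) with a limma adjusted p of 9.74e-06. Markers of the line were present, with SPI1 at 68.7 to 101 RPKM, PTPRC at 23.9 to 36.1 RPKM and LYZ at 1173 and 868 RPKM untreated and 268 and 242 RPKM induced. MPO stood at only 0.162 to 0.278 RPKM, and FLT3, the receptor that is mutated in this line, at 0.958 and 1.19 RPKM untreated and 0.0889 and 0.0451 RPKM induced. The replicate 1 libraries of both groups stood apart: 10 epithelial markers summed to 42.3 and 41.4 RPKM there and to 0.674 and 0.456 RPKM in the replicate 2 libraries, with KRT19 and EPCAM at 0 in both of the latter. For this reason each change of a member that passed is also given within replicate 1 and within replicate 2. Endothelial markers summed to at most 0.249 RPKM and markers of T and NK cells were near 0, with CD3D at 0 to 0.228 RPKM, except NKG7 at 134 to 340 RPKM. These are bulk samples, in which fewer cells of a type and less RNA per cell cannot be told apart. The p-values rest on the spread between 2 libraries per group, which limma combines with the spread of the other tested genes. That shared spread had 8.72 degrees of freedom and the gene's own spread 2, so the SE of a gene reflects mostly the shared part.

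The tested members changed in both directions after GADD45G induction, and most did not pass the test. Of the 46 members, 29 averaged 1 RPKM or more across the libraries and were tested: 3 were higher (GBP2, IFNAR2 and PARP14), 7 were lower (IFITM2, LY6E, USP18, HERC5, TRIM22, XAF1 and OAS3) and 19 did not pass an adjusted p of 0.05 in limma. This was 34.5% of the tested members, beside 38.9% of all 10771 tested genes (12.2% higher, 26.7% lower), a share near the background and so no result about the list. The median change of the tested members was 0.02 on the log2(RPKM + 1) scale, against -0.21 over all tested genes. With the scaling of the libraries by TMM (trimmed mean of M-values), the median of all genes moved to 0.00 and that of the members to 0.24, so the members' median lay 0.23 or 0.24 above that of all genes in both. TMM also changed the balance of calls over all genes from 1314 higher and 2871 lower to 1917 and 2045, and that of the members from 3 and 7 to 5 and 7.

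For 20 of the 29 tested members (69.0%), 9 higher and 11 lower, induced and untreated RPKM were fully separated, beside 70.0% of all tested genes (24.1% higher, 45.8% lower). Just inside the level limit lay XAF1, DHX58 and SAMD9L with means of 1.04, 1.06 and 1.13 RPKM, and just outside it IFITM1, IFIT2 and IRF9 with 0.996, 0.905 and 0.866 RPKM.

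The level of the list was set by a few genes. In untreated cells 10 members had a mean of at least 10 RPKM, 17 lay between 1 and 10, 13 between 0.1 and 1, and 6 under 0.1 RPKM. BST2, IFITM2, IFI6, ADAR and LY6E were the most abundant in the controls and made up 69.9% and 67.3% of the summed RPKM of the list there, and 67.5% and 54.1% in induced replicates 1 and 2. The sum was 616 and 552 RPKM untreated and 606 and 459 RPKM induced. Induced replicate 2 had the lowest sum, and induced replicate 1 lay between the controls.

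**Figure D2:**
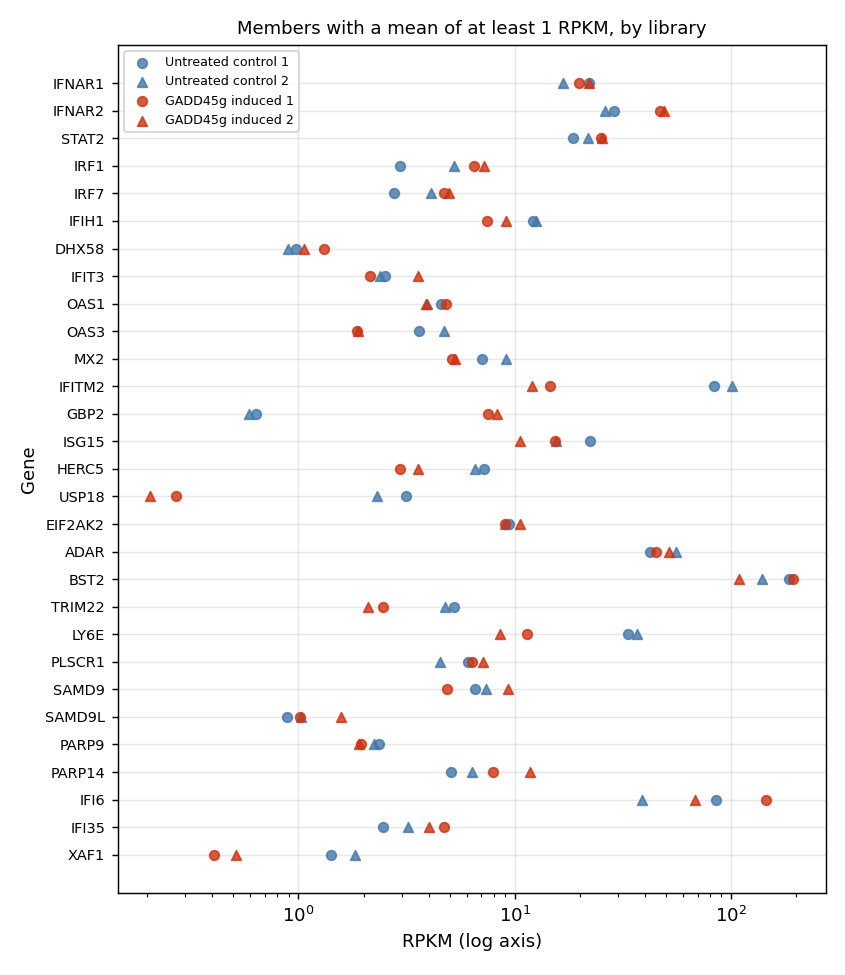
RPKM (log axis) of the 29 tested members in each of the 4 libraries, with blue for untreated and red for induced cells, circles for replicate 1 and triangles for replicate 2. GBP2 lies to the right in the induced libraries, at 7.53 and 8.31 RPKM, and IFITM2, LY6E and USP18 lie well to the left of their controls.

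Of the receptor subunits, IFNAR2 was higher after induction and IFNAR1 did not pass. IFNAR2, the high-affinity chain that docks STAT2, stood at 28.8 and 26.0 RPKM in untreated controls 1 and 2 and 46.9 and 48.8 RPKM in induced replicates 1 and 2, the order kept for the values below. Both induced libraries were above both controls. The change was 0.78 ± 0.23 (limma adjusted p = 0.0196, n = 2 per group), with 0.69 within replicate 1 and 0.88 within replicate 2. Without control 2, induced replicate 1 or induced replicate 2 the adjusted p was 0.0687, 0.0748 and 0.0972. The transcript IL10RB-DT, annotated on the opposite strand and sharing 1803 exonic bases with IFNAR2, stood at 25.0 and 17.4 RPKM untreated and 38.9 and 31.7 RPKM induced, and since the strand of the reads is not given, reads of these 2 genes cannot be told apart where they overlap. IFNAR1, the second chain, stood at 22.1 and 16.8 RPKM untreated and 19.9 and 22.1 RPKM induced, with groups that overlapped and a difference of 0.11 ± 0.24 (limma adjusted p = 0.736).

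Of the 4 transcription factors of the list 3 were tested, and none passed in limma, although IRF1 had an unadjusted p of 0.0259. IRF1, which binds the ISRE and is induced by interferon-gamma as well, stood at 2.94 and 5.23 RPKM untreated and 6.47 and 7.18 RPKM induced. Both induced libraries lay above the controls, with a difference of 0.66 ± 0.25 and a limma adjusted p of 0.063. The adjusted p ranged from 0.0165 to 0.311 over the 16 alternative settings, passing in 9 of them. Without control 1 the difference was 0.33 (adjusted p = 0.311) and without control 2 it was 0.99 (0.0223), and it did not pass without induced replicate 1 or induced replicate 2. IRF1 shares 1716 exonic bases with C5orf56 on the opposite strand, so its reads there are uncertain in the same way. IRF7, which drives the amplification of interferon-alpha, stood at 2.78 and 4.08 RPKM against 4.69 and 4.96 RPKM (difference 0.41 ± 0.23, limma adjusted p = 0.18). STAT2, the ISGF3 subunit that carries its activation domain, stood at 18.5 and 21.7 RPKM against 25.0 and 25.3 RPKM (difference 0.31 ± 0.23, limma adjusted p = 0.297). For both genes the induced libraries were above both controls by amounts that the test did not separate from the spread. IRF7 passed in 1 of the 15 alternatives that tested it, quantile normalization (0.68, limma adjusted p = 0.0362), and STAT2 in 0 of 16. IRF9, the DNA-binding subunit of ISGF3, lay under the level limit with 39 and 65 reads in the controls and 42 and 75 reads after induction, ordered by replicate rather than by group. It shares 1838 of its 3794 exonic bases with AL136295.5 on the same strand. Reads there could have been counted to either gene, so the level of IRF9 is uncertain.

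The cytosolic RNA sensors did not pass. IFIH1 (MDA5), a helicase that detects long double-stranded RNA, stood at 12.2 and 12.5 RPKM untreated and 7.42 and 9.07 RPKM induced. The induced libraries were both below the controls, with a difference of -0.53 ± 0.22 and a limma adjusted p of 0.0782. DHX58 (LGP2), a helicase related to IFIH1 that lacks the signalling domains, stood at 0.97 and 0.896 RPKM against 1.31 and 1.06 RPKM (difference 0.17 ± 0.22, limma adjusted p = 0.564).

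The IFIT genes encode proteins of complexes that bind foreign RNA, and all 4 were expressed at low levels. IFIT3, the only one tested, stood at 2.50 and 2.37 RPKM untreated and 2.14 and 3.56 RPKM induced. The control values lay between the induced ones, and the difference was 0.14 ± 0.24 (limma adjusted p = 0.676). IFIT1 was counted with 94 and 50 reads untreated and 72 and 36 induced, and was the higher in replicate 1 in both groups, by 1.57-fold and 1.69-fold. IFIT2 had 49 and 29 reads against 62 and 78, and IFIT5 22 and 21 against 14 and 12. The IFIT2 counts were the higher and the IFIT5 counts the lower in the induced libraries. Neither passed in the fit of reads described below (limma voom adjusted p = 0.187 and 0.416).

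Within the OAS family, whose enzymes make the 2′-5′-linked oligoadenylates that activate RNase L, OAS3 was lower and OAS1 did not pass. OAS3 stood at 3.60 and 4.70 RPKM untreated and 1.86 and 1.88 RPKM induced. The induced libraries agreed closely and lay below both controls, a 2.22-fold lower mean. The change was -0.83 ± 0.22 (limma adjusted p = 0.0119), with -0.69 within replicate 1 and -0.98 within replicate 2. The call was lost without control 2 (0.0506), induced replicate 1 (0.0866) or induced replicate 2 (0.0828), with quantile normalization (0.0629) and with no filter on level (0.0892), all limma adjusted p. OAS1 stood at 4.56 and 3.95 RPKM against 4.83 and 3.88 RPKM, with overlapping groups and a difference of 0.02 ± 0.22 (limma adjusted p = 0.944). OAS2 had 44 and 52 reads untreated and 7 and 13 induced, a total 4.86-fold lower per library depth with a 95% exact interval of 2.98 to 8.30 that covers counting error only. OASL, a family member without synthetase activity, had 64 and 62 reads against 92 and 44, so its controls lay between the induced libraries.

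The MX genes encode dynamin-like GTPases that trap viral nucleocapsids. MX2 stood at 7.09 and 9.11 RPKM untreated and 5.15 and 5.32 RPKM induced. The groups did not overlap, and the difference was -0.54 ± 0.22 (limma adjusted p = 0.0783). MX1, one of the most used reporters of interferon action, had only 27 and 28 reads untreated and 33 and 28 induced, at most 0.207 RPKM in any library.

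The IFITM proteins, which hinder the fusion of enveloped viruses with endosomal membranes, included the tested member with the largest fall on the log2(RPKM + 1) scale. IFITM2 stood at 83.8 and 101 RPKM untreated and 14.5 and 12.0 RPKM induced. Both induced libraries were far below both controls, a 7.0-fold lower mean. The change was -2.72 ± 0.24 (limma adjusted p = 2.04e-05), with -2.46 within replicate 1 and -2.98 within replicate 2, and it passed in 16 of 16 alternatives. IFITM1, its neighbour, had 25 and 41 reads untreated and 2 and 4 induced. That is a total 11.1-fold lower per library depth, with a 95% exact interval of 4.85 to 31.4. The 2 genes share 351 annotated exonic bases on the same strand and are close in sequence, so part of the reads could have been counted to either. IFITM3 had 18 and 4 reads against 18 and 5, following the replicate number and not the induction. These counts are too low to exclude a change, with 0.12 ± 0.89 in the fit of reads described below (limma voom adjusted p = 0.936). IFITM3 also shares 287 exonic bases with AC136475.5 on the opposite strand.

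Of the guanylate-binding proteins, GTPases that attack the membranes around intracellular microbes, GBP2 showed the largest increase among the tested members. It stood at 0.636 and 0.589 RPKM in the controls (75 and 58 reads) and at 7.53 and 8.31 RPKM after induction (893 and 833 reads). The controls agreed closely and the induced libraries lay far above them, a 12.9-fold higher mean. The change was 2.47 ± 0.21 (limma adjusted p = 1.74e-05), with 11.8-fold within replicate 1 and 14.1-fold within replicate 2, and it passed in 15 of the 15 alternatives that tested it. GBP1 had 0 reads in both controls and 9 and 7 reads after induction, all at or under 0.0954 RPKM. Set against a floor of 3 reads over the control group, the induced total was 5.27-fold higher per library depth. This value leaves out the counting error of the induced reads.

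ISG15 is a ubiquitin-like protein that HERC5 attaches to newly made proteins and USP18 removes. USP18, which also blocks signalling at IFNAR2, stood at 3.15 and 2.31 RPKM untreated and 0.273 and 0.206 RPKM induced. Both induced libraries were near 0 (11 and 7 reads), and the mean was 11.4-fold lower. The change was -1.58 ± 0.23 (limma adjusted p = 0.000376), and the ratio was alike in the 2 replicates, 11.5-fold and 11.2-fold lower. HERC5 stood at 7.23 and 6.56 RPKM untreated and 2.94 and 3.56 RPKM induced, groups that did not overlap, and it fell by 0.89 on the log2(RPKM + 1) scale (SE 0.22, limma adjusted p = 0.00737), with changes of -1.06 and -0.73 within replicates 1 and 2. The HERC5 call was lost without induced replicate 1 (limma adjusted p = 0.0894) and with no filter on level (0.0555). ISG15 itself stood at 22.2 and 15.5 RPKM untreated and 15.4 and 10.6 RPKM induced, a difference of -0.51 ± 0.27 that did not pass (limma adjusted p = 0.156). Induced replicate 1 and control 2 were nearly equal for ISG15. HERC6, a relative of HERC5, had 97 and 56 reads untreated and 45 and 39 induced.

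Of the 3 enzymes directed at RNA the 2 tested did not pass. EIF2AK2 (PKR), the kinase that double-stranded RNA activates to halt translation, stood at 9.37 and 8.99 RPKM untreated and 8.99 and 10.6 RPKM induced (difference 0.08 ± 0.22, limma adjusted p = 0.802). ADAR, which edits adenosine to inosine, stood at 42.4 and 55.5 RPKM against 45.0 and 51.4 RPKM (difference -0.01 ± 0.25, limma adjusted p = 0.972). The induced ADAR values lay between the controls. ISG20, an RNA exonuclease, had 15 and 18 reads untreated and 171 and 111 induced. This is 8.45-fold more per library depth, with a 95% exact interval of 5.88 to 12.5, from a level of 0.108 and 0.156 RPKM to 1.23 and 0.944 RPKM.

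Among the membrane and other antiviral effectors, LY6E and TRIM22 were lower, BST2 and PLSCR1 did not pass, and RSAD2 was not tested. LY6E, a lipid-anchored surface protein that limits coronavirus entry, stood at 33.3 and 36.9 RPKM untreated and 11.4 and 8.59 RPKM induced. The induced libraries lay below both controls, with a 3.51-fold lower mean, a change of -1.72 ± 0.24 (limma adjusted p = 0.000275) and values of -1.46 and -1.98 within replicates 1 and 2. TRIM22, a ubiquitin ligase that restricts viral transcription, stood at 5.24 and 4.74 RPKM untreated and 2.47 and 2.10 RPKM induced. Its groups did not overlap, and the change was -0.87 ± 0.21 (limma adjusted p = 0.00829), with -0.85 and -0.89 within replicates 1 and 2. The TRIM22 call was lost without induced replicate 2 (0.0921), with quantile normalization (0.0508) and with no filter on level (0.0654). BST2 (tetherin), which holds budding virions at the cell surface and was the most abundant member in each of the 4 libraries, stood at 186 and 139 RPKM untreated and 194 and 109 RPKM induced. The highest and the lowest BST2 values were both in induced cells, and the difference was -0.15 ± 0.32 (limma adjusted p = 0.745). PLSCR1, a lipid scramblase, stood at 6.11 and 4.51 RPKM against 6.32 and 7.14 RPKM (difference 0.30 ± 0.23, limma adjusted p = 0.317). RSAD2 (viperin), which makes a chain-terminating nucleotide, had 9 and 6 reads untreated and 0 and 1 induced.

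Of the SAMD9 and PARP pairs, PARP14 passed and the other three genes did not. SAMD9, a growth-restricting antiviral protein, stood at 6.56 and 7.36 RPKM untreated and 4.87 and 9.34 RPKM induced, with a lower value in induced replicate 1 and a higher one in induced replicate 2 (difference -0.03 ± 0.28, limma adjusted p = 0.946). SAMD9L, its paralogue, stood at 0.888 and 1.03 RPKM against 1.02 and 1.57 RPKM (difference 0.22 ± 0.23, limma adjusted p = 0.476). PARP14, an ADP-ribosyltransferase, stood at 5.09 and 6.32 RPKM untreated and 7.97 and 11.8 RPKM induced. The induced libraries lay above both controls, with a change of 0.68 ± 0.24 (limma adjusted p = 0.0475) and values of 0.56 and 0.80 within replicates 1 and 2, and it passed in 9 of 16 alternatives. Its adjusted p was 0.206, 0.0798, 0.0505 and 0.364 without control 1, control 2, induced replicate 1 and induced replicate 2. PARP9, its partner, stood at 2.35 and 2.23 RPKM against 1.94 and 1.91 RPKM (difference -0.17 ± 0.21, limma adjusted p = 0.555).

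Of the remaining members, XAF1 was lower. XAF1, which antagonises the apoptosis inhibitor XIAP, stood at 1.41 and 1.82 RPKM untreated and 0.405 and 0.517 RPKM induced. The groups did not overlap, the mean was 3.51-fold lower, and the change was -0.84 ± 0.22 (limma adjusted p = 0.0127), with -0.78 and -0.89 within replicates 1 and 2. XAF1 shares 2535 exonic bases with PRAL on the opposite strand. The XAF1 call was lost without induced replicate 1 (0.104), without induced replicate 2 (0.0721) and with no filter on level (0.0552). IFI6, a small membrane protein, stood at 85.0 and 38.8 RPKM untreated and 145 and 68.0 RPKM induced. Replicate 1 was 2.19-fold above replicate 2 in the controls and 2.13-fold above it in the induced cells, so the groups overlapped, while the difference was 0.76 within replicate 1 and 0.79 within replicate 2. The pooled difference of 0.78 ± 0.41 did not pass (limma adjusted p = 0.158), and without induced replicate 2 it was 1.32 with an adjusted p of 0.041, in a range of 0.00619 to 0.745 over the 16 alternatives. IFI35, a damage-associated signalling protein, stood at 2.46 and 3.20 RPKM against 4.72 and 4.03 RPKM (difference 0.49 ± 0.22, limma adjusted p = 0.101). With TMM, upper quartile and quantile scaling the IFI35 adjusted p was 0.0293, 0.0458 and 0.02.

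**Figure D3:**
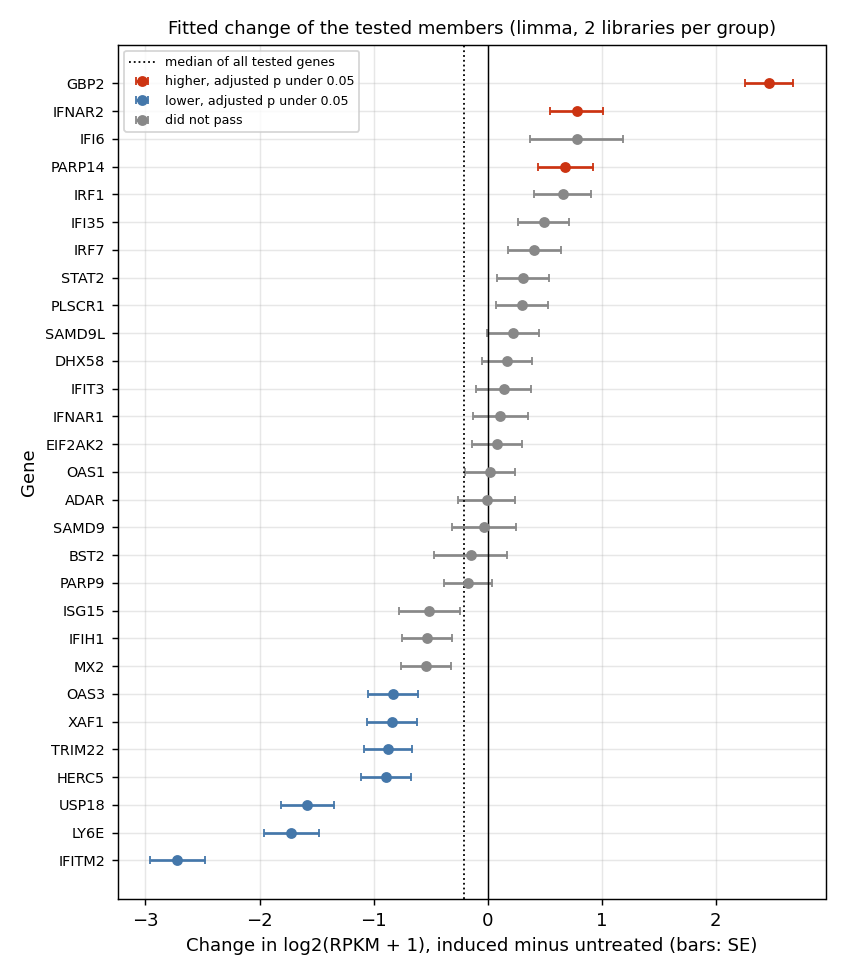
Fitted change in log2(RPKM + 1), induced minus untreated, of the 29 tested members (points) with its SE (bars), and the median of all tested genes (dotted line at -0.21). GBP2 at 2.47 and IFITM2 at -2.72 are the ends of the range, and 19 members did not pass the test.

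**Figure D4:**
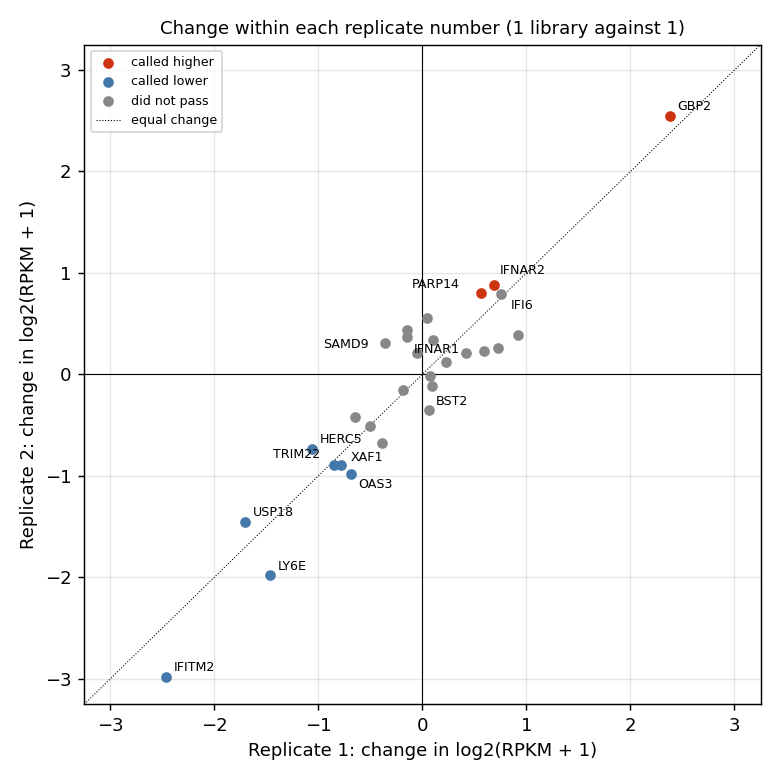
Change in log2(RPKM + 1) within replicate 1 (horizontal) and within replicate 2 (vertical) for the 29 tested members, 1 library against 1. GBP2 and IFITM2 lie at the ends, and IFI6, which did not pass, lies near the line of equal change at 0.76 and 0.79.

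IFI44, IFI44L, EPSTI1 and CXCL10, which are among the genes most strongly raised by interferon in blood cells, were nearly silent. IFI44 had 1 and 0 reads untreated and 2 and 0 induced, and IFI44L had 0 and 0 against 1 and 1. EPSTI1 had 0 and 1 reads against 3 and 1, and CXCL10, a chemokine that attracts T cells, 2 and 1 against 0 and 0. No difference in these 4 genes was detectable at this depth.

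The 17 members under 1 RPKM could still be compared through whole reads, which were recovered from the RPKM values for all 46 members. This alternative, limma voom with a mean of at least 10 reads, was chosen after the data had been seen and took in 40 members. It called 5 higher (GBP2, IFNAR2, IRF1, ISG20 and PARP14) and 9 lower (IFITM2, LY6E, USP18, HERC5, TRIM22, OAS2, OAS3, IFITM1 and XAF1), or 35.0%, beside 36.6% of the 12571 genes in that fit (11.8% higher, 24.8% lower). Of the genes not tested on RPKM, ISG20 changed by 3.04 on the log2 scale of reads (voom adjusted p = 0.00066), OAS2 by -2.29 (0.0156) and IFITM1 by -3.29 (0.0114). On this scale, where no constant is added to RPKM, the change of USP18 was -3.43 and that of GBP2 3.68.

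**Figure D5:**
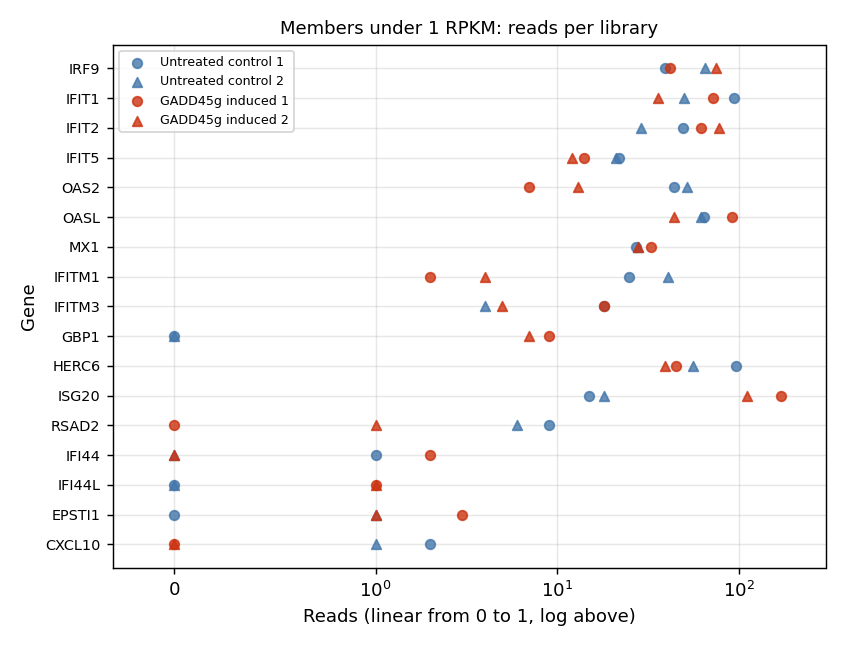
Recovered reads per library (linear from 0 to 1, log above) of the 17 members with a mean under 1 RPKM, with blue for untreated and red for induced cells, circles for replicate 1 and triangles for replicate 2. ISG20 and GBP1 lie to the right after induction and OAS2, IFITM1 and RSAD2 to the left, while IFIT1 and IFITM3 are ordered by replicate.

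IFI6, IFIT1 and IFITM3 were at least 1.5-fold higher in replicate 1 than in replicate 2 in both groups. IFI6 was 1 of 29 tested members (3.45%), beside 195 of 10640 tested genes (1.83%). IFIT1 and IFITM3 were 2 of the 11 members under the level limit with a value above 0 in each library, beside 392 of 3452 such genes (11.4%). The epithelial markers were high in the same 2 libraries. The interferon-inducible genes IFI27 (0.897 and 0.123 RPKM untreated, 1.18 and 0.181 RPKM induced) and LGALS3BP (1.55 and 0.16 against 1.68 and 0.21 RPKM), named after their values were seen, had the same order. The part of these markers in the levels of the 3 members was not tested.

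Other genes of the pathway were read from 6 lists, of which 98 genes were tested: 20 were higher and 23 were lower, or 43.9%, beside 38.9% of all tested genes. Of 22 interferon genes looked for, 17 were listed in all 4 libraries and the others could not be read. None of the 17 reached the level limit, 8 were at 0 in all 4 libraries and the highest single value was 0.385 RPKM. The 17 summed to 0.0724 and 0.116 RPKM untreated and 0.593 and 0.669 RPKM induced. These sums rest on a few reads, such as 0 and 0 against 2 and 7 for IFNK, and were not tested. Among 10 tested genes of receptor signalling 2 were higher (JAK1 and IFNGR2) and 1 was lower (IRF8), beside 38.9% called of all tested genes. IFNGR2 did not pass without control 1, control 2 or induced replicate 2, with limma adjusted p of 0.105, 0.0588 and 0.185. JAK1, the kinase bound to IFNAR2, stood at 21.6 and 24.4 RPKM untreated and 43.6 and 49.0 RPKM induced (0.98 ± 0.23, limma adjusted p = 0.00667, and 0.0546 without induced replicate 2). IRF8, an interferon regulatory factor of the monocyte lineage, stood at 44.4 and 35.9 RPKM against 6.06 and 3.87 RPKM (-2.80 ± 0.25, limma adjusted p = 2.41e-05). Both of these genes had groups that did not overlap.

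Of 21 tested negative regulators 4 were higher (SOCS3, CISH, PTPN1 and TNFAIP3) and 4 lower (PTPN2, PIAS2, NLRC5 and TREX1), or 38.1%, beside 38.9% of all tested genes. SOCS3, a feedback inhibitor of JAK kinases, stood at 0.683 and 0.467 RPKM untreated and 6.28 and 5.94 RPKM induced (2.18 ± 0.22, limma adjusted p = 4.02e-05). PTPN2, a phosphatase of JAK1, stood at 8.01 and 8.29 RPKM against 2.49 and 3.38 RPKM (-1.23 ± 0.22, limma adjusted p = 0.00144). SOCS3 was thus higher and PTPN2 lower in each induced library than in each control, and both passed with any 1 library left out. The other 6 calls were lost in at least 1 of these fits, given here by limma adjusted p: CISH without control 1 (0.055) or induced replicate 1 (0.0614), TNFAIP3 without control 1 (0.0505) or induced replicate 2 (0.0636), PTPN1 without induced replicate 1 (0.0771) and NLRC5 without induced replicate 2 (0.0601). TREX1 was lost without control 2, induced replicate 1 or induced replicate 2 (0.118 to 0.164) and PIAS2 in each of the 4 fits that left out 1 library (0.0718 to 0.30), and TMM scaling ended both calls (0.137 and 0.124). Of 19 tested genes of nucleic acid sensing 4 were higher (TRIM25, AIM2, TANK and TICAM1) and 3 lower (UNC93B1, IRF5 and IRAK1), or 36.8%, also near the 38.9% of all tested genes. TRIM25, the ubiquitin ligase that activates RIG-I, stood at 22.0 and 21.7 RPKM untreated and 78.9 and 83.6 RPKM induced (1.85 ± 0.23, limma adjusted p = 0.000149). IRF5, a factor downstream of Toll-like receptors, stood at 23.0 and 25.5 RPKM against 11.2 and 8.80 RPKM (-1.21 ± 0.23, limma adjusted p = 0.00201). The values of TRIM25 and IRF5 did not overlap between groups. The TANK and IRAK1 calls were lost without control 2 or induced replicate 2 (limma adjusted p = 0.0503 to 0.0586), and that of TICAM1 without control 1 or either induced replicate (0.106 to 0.168).

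Among 39 other tested interferon-stimulated genes 7 were higher, among them DDX60L, and 11 lower, among them UBA7, LGALS9 and TRIM14. This was 46.2%, beside 38.9% of all tested genes, with a median change of -0.08 beside -0.21. UBA7, the enzyme that activates ISG15 for conjugation, stood at 8.42 and 13.6 RPKM untreated and 1.09 and 1.10 RPKM induced (-2.48 ± 0.25, limma adjusted p = 4.19e-05). UBE2L6, the conjugating enzyme of the same cascade, named after its values were seen, stood at 39.4 and 44.4 RPKM against 30.9 and 25.4 RPKM and did not pass (limma adjusted p = 0.0843). Both induced libraries lay below both controls for each of these 2 genes. DDX60L, a helicase, stood at 6.35 and 5.25 RPKM untreated and 24.2 and 28.9 RPKM induced (2.02 ± 0.23, limma adjusted p = 8.49e-05). Of 9 tested genes known mainly as targets of interferon-gamma 3 were higher (GBP5, ICAM1 and TAP1) and 4 lower (WARS1, PSMB8, PSMB10 and VAMP5), beside 12.2% and 26.7% of all tested genes. GBP5, a relative of GBP2, stood at 2.65 and 3.23 RPKM untreated and 7.18 and 10.6 RPKM induced (1.31 ± 0.24, limma adjusted p = 0.0016), and WARS1, a tRNA synthetase, at 34.5 and 33.3 RPKM against 14.8 and 13.3 RPKM (-1.22 ± 0.22, limma adjusted p = 0.00164). GBP5 was the higher and WARS1 the lower in both induced libraries. The TAP1 call was lost in each of the 4 fits that left out 1 library (limma adjusted p = 0.0936 to 0.273), ICAM1 without control 1 or either induced replicate (0.0675 to 0.15), PSMB8 without control 1 (0.0681) or induced replicate 2 (0.0692), and PSMB10 without control 2 or either induced replicate (0.0618 to 0.122), while TMM scaling also ended PSMB10 (0.0522).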

How the data were processed

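The 4 RNA-seq libraries were grouped by their treatment labels, and replicate numbers follow the suffix in the titles. The authors deposited RPKM values by Ensembl gene ID, per the file headers. TopHat, Cuffnorm, Cuffdiff and the build hg19 appear in the submitters' processing notes without versions or roles. Induced replicate 1 ends within a line after 27332 of 57820 IDs, so genes listed in all 4 libraries were used. Those averaging 1 RPKM or more (10771) were fitted by group as log2(RPKM + 1) with limma 3.58.1 in R 4.3.3, eBayes with trend, two-sided, Benjamini-Hochberg over all tested genes, threshold 0.05, with no scaling added. Adding 1 understates the changes of low genes. The script was tested on simulated data. For IDs with the same version in GENCODE 29, low values (up to 20 reads) were whole multiples of 1 read in 100.0% of cases within 0.01 reads. Where the version differed or its length did not give whole reads, the length nearest to that of GENCODE 29 that did so was taken. The check does not cover these genes, and their read counts depend on the length taken. Reads were recovered for 10608 tested genes. Intervals for single genes are 95% exact and cover counting error only. The sources used here give no strand, read length or aligner settings. All 46 members are named, with GADD45G, up to 4 tested genes with the smallest adjusted p per pathway list and up to 4 of the highest mean per marker list, and the text prints the ones it needs; where a list had few calls, those beyond this rule were named after their values were seen. The members and lists were chosen with earlier results of these data known. Alternatives covered the pseudocount, filter, scaling, variance prior, replicate block, voom on reads and each library left out.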

Additional observations from a re-analysis of the deposited data

How the results depend on the processing

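GBP2, IFITM2, LY6E and USP18 kept their calls in each of the 15 or 16 alternatives that tested them. The count of 10 members called became 6 with no filter and ranged from 5 to 9 with 1 library left out. The 3 higher members became 5 with TMM scaling, upper quartile scaling, voom on recovered reads and voom with a filter on reads, 6 with quantile normalization, and 1 to 2 with 1 library left out. The 7 lower members became 3 with no filter, 3 with a mean of at least 5 RPKM, and 4 to 7 with 1 library left out. The median change of the members was 0.24 with TMM scaling, 0.17 with upper quartile scaling and 0.28 with quantile normalization. Over all genes, 4185 calls became 2462 with no filter (823 higher, 1639 lower) and 2597 to 3582 with 1 library left out (798 to 1133 higher, 1766 to 2449 lower). The 43 calls of the pathway lists became 24 with no filter and 25 to 35 with 1 library left out. A replicate block gave 5 members higher and 7 lower, the added ones being IFI6 (0.78 ± 0.25, limma adjusted p = 0.00619) and IRF1 (0.66 ± 0.24, 0.0165). The labels do not say that the numbers pair the libraries, and the deviations of same-numbered libraries had a correlation of 0.349 across genes. The sign of the change turned, in each case without a call, for some members. With 1 library left out, the change ranged from -0.07 to 0.30 for IFNAR1, -0.13 to 0.41 for IFIT3, -0.11 to 0.15 for OAS1 (-0.06 without control 2), -0.03 to 0.19 for EIF2AK2, -0.20 to 0.18 for ADAR (0.08 without induced replicate 1), -0.56 to 0.27 for BST2 (0.06 without control 1) and -0.44 to 0.38 for SAMD9 (0.04 without control 2). With TMM, upper quartile and quantile scaling ADAR was 0.24, 0.16 and 0.11, and SAMD9 0.20, 0.13 and 0.21. BST2 was 0.11 and 0.03 with the first and second of these, and PARP9 0.00 and 0.08 with TMM and quantile scaling. The cause of these shifts was not tested. With 2 libraries per group an exact permutation test cannot go below p = 0.333, and reads of 0 to 3 per library limit IFI44, IFI44L, EPSTI1 and CXCL10.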
